A study of Mus musculus with 53 samples.

Results

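The genes described here are 41 mouse genes of glutathione chemistry and of antioxidant defence linked to the transcription factor NRF2, measured in whole liver by mRNA sequencing. They were chosen by gene symbol, and each of the 41 matched 1 row in every one of the 3 deposited tables of read counts, which have 36410 genes in common. All mice were male and of the C57BL/6J strain, and carried the label Bmp8b Knockout or wild type. In the diet experiment, mice 9 weeks old received 32 weeks of diet. Its groups were livers labelled knockout on Western diet (Teklad TD88137, n = 7), wild-type livers on Western diet (n = 7) and wild-type livers on the low-fat control diet (Teklad TD08485, n = 9). In the toxin experiment, mice 16 weeks old received 2 µl per g of body weight into the abdominal cavity and were killed after 3 days. Its groups were livers labelled knockout after CCl4 mixed with an equal volume of olive oil (n = 6), wild-type livers after CCl4 (n = 4) and wild-type livers after olive oil alone (n = 6). In the surgery experiment, part of the liver was removed from mice 16 weeks old. Its groups were livers labelled knockout at day 3 (n = 4), wild-type livers at day 3 (n = 5) and wild-type tissue removed at day 0 (n = 5). No unchallenged liver labelled knockout is analysed here, and the labels do not say which stretch of Bmp8b was deleted. The same mouse numbers recur at day 0 and day 3, and the labels do not state that they mark the same animals.

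Glutathione is a small thiol that liver cells hold at high concentration. Glutamate-cysteine ligase (Gclc and its modifier subunit Gclm) and glutathione synthetase (Gss) make it, glutathione reductase (Gsr) returns the oxidized form to use, and the transferases join it to electrophiles such as drug metabolites and products of lipid peroxidation. NRF2 is held back by KEAP1 in resting cells and, once released by electrophiles, binds antioxidant response elements together with small MAF proteins and raises many of these genes, Nqo1, Srxn1, Txnrd1, Gclm and mu and alpha class transferases among them in mouse liver. CCl4 is turned into a radical by cytochrome P450 enzymes, mainly in hepatocytes around the central vein. A long Western diet loads hepatocytes with lipid, and removal of part of the liver makes the remaining hepatocytes divide.

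The core of the antioxidant response element was searched as TGACNNNGC on both strands of the window from 250 bases before to 50 bases after each RefSeq transcription start (build GRCm38.p6). A window was found for 36 of the 41 genes, 50 windows in all; Gsta4, Gstt2, Gclc, Gsr and Hmox1 were not matched. The core was present for 9 of the 36 genes (25%), namely Gsta3, Gstm7, Mgst1, Gclm, Txnrd1, Srxn1, Prdx1, Sod1 and Abcc4, against 14% of the 27025 genes of the whole RefSeq table. Of those 9, Srxn1 rose under all 3 challenges and Txnrd1 after CCl4 alone among the challenges, while Gclm and Prdx1 passed the test under none of them. Abcc4 rose on Western diet, and Gsta3, Gstm7, Mgst1 and Sod1 fell under at least 1 challenge. Gstm3, among the steepest rises on Western diet and at day 3 of hepatectomy, did not have these letters in its window. These 4 windows are printed below to set responding and non-responding genes beside each other, with the core in capitals and with the start site after base 250. They are Srxn1 at chr2:152105274-152105573 on the plus strand, a start of Txnrd1 at chr10:82858956-82859255 on the plus strand, Gclm at chr3:122245307-122245606 on the plus strand and Gstm3 at chr3:107969125-107969424 on the minus strand, each 5′ to 3′ along its gene.
Srxn1: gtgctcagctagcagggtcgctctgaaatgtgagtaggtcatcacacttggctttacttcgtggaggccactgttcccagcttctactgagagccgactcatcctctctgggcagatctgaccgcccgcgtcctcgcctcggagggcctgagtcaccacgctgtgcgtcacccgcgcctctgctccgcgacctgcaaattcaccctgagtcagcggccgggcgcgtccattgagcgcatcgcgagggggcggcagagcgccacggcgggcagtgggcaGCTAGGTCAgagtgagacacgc
Txnrd1: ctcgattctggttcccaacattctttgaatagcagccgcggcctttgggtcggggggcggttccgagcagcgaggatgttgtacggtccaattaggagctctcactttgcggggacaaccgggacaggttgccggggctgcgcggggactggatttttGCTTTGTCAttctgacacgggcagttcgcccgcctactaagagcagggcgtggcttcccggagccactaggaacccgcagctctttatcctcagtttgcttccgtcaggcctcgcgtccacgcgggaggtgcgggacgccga
Gclm: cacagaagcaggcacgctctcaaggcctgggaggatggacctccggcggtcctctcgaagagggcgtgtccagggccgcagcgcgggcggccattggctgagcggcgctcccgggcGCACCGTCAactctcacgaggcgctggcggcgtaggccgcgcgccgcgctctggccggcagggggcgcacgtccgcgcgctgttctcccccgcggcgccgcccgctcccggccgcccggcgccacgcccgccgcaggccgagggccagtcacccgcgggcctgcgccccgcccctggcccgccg
Gstm3: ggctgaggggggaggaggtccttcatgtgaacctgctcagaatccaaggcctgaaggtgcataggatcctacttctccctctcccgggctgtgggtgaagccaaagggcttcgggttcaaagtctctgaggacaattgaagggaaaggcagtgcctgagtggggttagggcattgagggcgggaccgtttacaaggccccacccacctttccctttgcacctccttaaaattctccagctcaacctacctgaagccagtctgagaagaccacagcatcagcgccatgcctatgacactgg
The core began 28 bases after the start of Srxn1, and lay 92 bases before that of Txnrd1 and 134 before that of Gclm. In each of these 3 it is on the opposite strand, so the capitals show its reverse complement. Only the letters of this core were matched, so stretches that differ from it by a letter were neither marked nor counted. The Srxn1 window holds such a stretch, tgagtcagc, before the start. The core marks no measured binding.

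A library held 8963187 to 15196537 counts for the diet livers, 2661699 to 6364414 for the toxin livers and 2450358 to 6914274 for the surgery livers. Between 0.576 and 2.34% of a library's counts fell on the 41 genes. Bmp8b, the targeted gene, had no fewer counts under the knockout label: it averaged 1.53 ± 0.523 CPM in livers so labelled and 1.07 ± 0.491 CPM in wild-type livers of Western diet mice, 1.18 ± 1.04 CPM and 0.464 ± 0.629 CPM after CCl4, and 2.12 ± 0.703 CPM and 0.848 ± 0.407 CPM at day 3 (SD). It averaged 0.128 ± 0.130 CPM on low-fat diet and 0.210 ± 0.327 CPM at day 0, and had no count after olive oil. Gene totals do not show which exons were read, so the groups are called labelled knockout throughout. CCl4 livers 34 (wild type) and 35 (labelled knockout) stood apart from the other CCl4 livers. Their 8 markers of dividing cells summed to 27.8 and 28.0 CPM, against 170.2 CPM or more in the other 8 CCl4 livers, and their 10 markers of monocytes and macrophages summed to 939 and 1152 CPM, against 501.2 CPM or less. The 6 olive oil libraries carried 2 sequencing indices, D504 and D505, 3 libraries each, and this split is taken up with the toxin results. Livers 34 and 35 were the only CCl4 livers with index D505, so the index and whatever else set them apart cannot be separated. Every value below is a level in CPM, the library-size-scaled count after TMM normalization, and a gene was called when its Benjamini-Hochberg adjusted p from edgeR's quasi-likelihood test, over all genes tested in the table, was under 0.05.

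Per kilobase of exon, microsomal Mgst1 was the most abundant of the 41 genes in each set of wild-type controls, at 1856 ± 162 CPM per kb on low-fat diet, 1635 ± 254 after olive oil and 1783 ± 172 at day 0 (SD). Catalase (Cat), which breaks down hydrogen peroxide, was next at 1251 ± 65.5, 1295 ± 151 and 1307 ± 97.7 CPM per kb. After CCl4 mu class Gstm1 had the highest mean, at 1401 ± 1571 CPM per kb, against 727 ± 144 for Mgst1, with an SD of Gstm1 that spans the difference. Gsta1, Gstm3, Gpx3, Nqo1 and Gstp2 were scarce in controls. On low-fat diet Gsta1 averaged 4.11 ± 3.50 CPM per kb and Nqo1 averaged 4.90 ± 1.71 CPM per kb. Mgst2 and Gpx2 were too low to be tested in any table, and Slc7a11 and Abcc4 too low in the surgery table, where the 5 day 3 livers held 0, 0, 0, 1 and 1 counts of Slc7a11 and the 5 day 0 livers none.

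The counts of the 21 transferases were divided among their classes in each liver, without division by length. The mu class took 31.8 ± 9.63% in livers labelled knockout on Western diet, 33.5 ± 3.80% in wild-type livers of the same diet and 20.0 ± 1.95% on low-fat diet (SD). Its share at day 3 of hepatectomy was 28.1 ± 1.28% in livers labelled knockout and 28.9 ± 7.504% in wild-type livers, against 15.0 ± 1.78% at day 0. The wild-type groups did not overlap in either experiment, with 27.8 to 39.3% on Western diet against 17.0 to 22.9% on low-fat diet, and 20.5 to 35.5% at day 3 against 13.6 to 18.0% at day 0. After CCl4 the mu share ran over 12.1 to 47.7% in livers labelled knockout and 10.4 to 56.8% in wild-type livers, which covered the olive oil range of 12.8 to 32.5%. The alpha class took 15.0 ± 0.637% on Western diet and 21.3 ± 1.55% on low-fat diet, without overlap (14.0 to 16.0% against 19.6 to 23.6%). At day 3 it took 15.5 ± 2.19%, against 16.4 ± 1.27% at day 0, with overlapping ranges. The theta class took 3.76 ± 0.502% on Western diet and 4.68 ± 0.901% on low-fat diet, 2.09 ± 0.816% after CCl4 and 3.42 ± 0.289% after olive oil, and 3.65 ± 0.240% at day 3 and 3.08 ± 0.322% at day 0. The pi class took 1.41 ± 0.295% on Western diet and 2.11 ± 1.06% on low-fat diet. Its shares in the other experiments were 12.3 ± 5.01% after CCl4 and 9.82 ± 4.41% after olive oil, and 8.43 ± 1.37% at day 3 and 9.68 ± 0.768% at day 0. The pi share was thus lower in every group of the diet table than in any group of the other tables, and the tables were counted separately. Copies matter here, since 33.7% of the 50-base stretches of Gstp1 and 54.3% of those of Gstp2 also occur in another gene, so the level of each, and this class share, are uncertain.

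**Figure D1:**
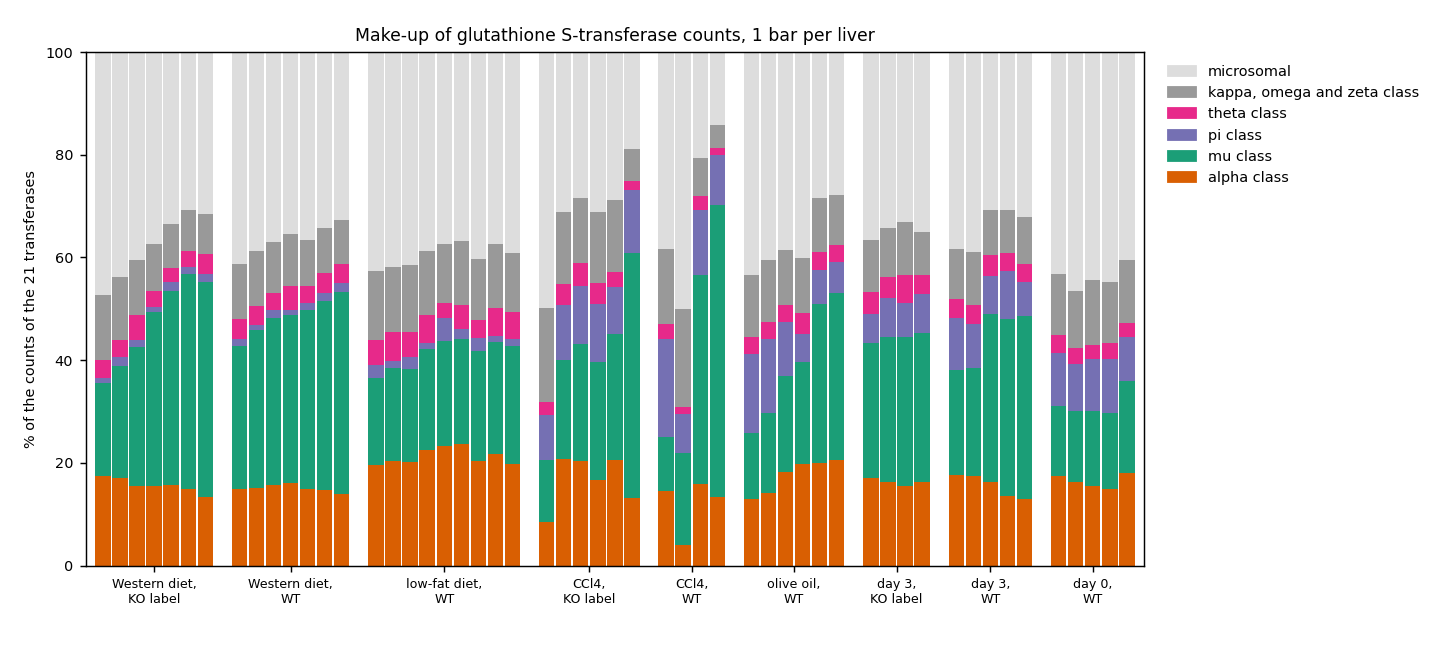
Share of the counts of the 21 glutathione S-transferases (vertical axis, %) that fell on each class, 1 bar per liver, for the 9 groups in the order challenged and labelled knockout, challenged wild type, wild-type control. The mu class band is wider in wild-type Western diet and day 3 bars than in their controls, and its height differs most from liver to liver after CCl4.

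Western diet against low-fat diet asks what a long steatotic diet did to these genes in wild-type liver. Of the 39 members tested, 18 rose, 9 fell and 12 did not pass, beside 20.4% of all 13005 genes called higher and 17% called lower. Among those that rose, Gstp2 and Slc7a11 passed the low-count filter through the Western diet livers. Gsta1, Gstm3 and the exporter Abcc4 rose most, and the members that fell did so by less than 1 on the log2 scale. The median log2 fold change was 0.18 over the members and -0.023 over all genes. Within the 2 i5 sequencing indices given in the labels, 15 members rose and 8 fell among D501 livers (3 against 4), beside 16.6% of all genes higher and 11.5% lower. Among D502 livers (4 against 5) 14 rose and 1 fell, beside 8.22% and 3.84%.

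The alpha and mu class transferases held the widest range. Gsta1, an alpha class enzyme active on lipid peroxides, lay between 16.2 and 58.6 CPM with a median of 45.3 on Western diet and between 0.625 and 10.6 CPM with a median of 2.35 on low-fat diet. The groups did not overlap, and Gsta1 rose by 3.28 ± 0.50 (SE; edgeR adjusted p = 3.01e-05) on the log2 scale. Reads of Gsta1 are hard to place, since 90.5% of its 50-base stretches occur in another gene, as do 28.8% of those of Gstm3 and 18.9% of those of Gstm1. Its relative Gsta2, with 49.8% shared, lay between 10.9 and 24.8 CPM with a median of 13.5 on Western diet and between 4.78 and 10.7 CPM with a median of 7.67 on low-fat diet, and rose by 1.09 ± 0.25 (SE; edgeR adjusted p = 0.0013). Gsta3, the most abundant alpha class member per kilobase, went the other way. It lay between 1267 and 1799.7 CPM with a median of 1364 on Western diet and between 1711 and 2382 CPM with a median of 1877 on low-fat diet, and fell, with a log2 fold change of -0.44 ± 0.086 (SE; edgeR adjusted p = 2.86e-04); the ranges overlapped at their edges. Gsta4, which prefers hydroxynonenal as a substrate, did not pass, at 0.31 ± 0.13 (SE; edgeR adjusted p = 0.0667).

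Gstm3 lay between 218 and 598 CPM with a median of 379 on Western diet and between 28.8 and 68.1 CPM with a median of 48.8 on low-fat diet. All 7 Western diet livers stood above the highest low-fat liver, with a log2 fold change of 3.07 ± 0.36 (SE; edgeR adjusted p = 2.71e-06). The far more abundant Gstm1 lay between 2304 and 3094 CPM with a median of 2377 on Western diet and between 1181 and 1753 CPM with a median of 1467 on low-fat diet. It too did not overlap, and rose by 0.83 ± 0.16 (SE; edgeR adjusted p = 2.23e-04). Gstm4 lay between 105 and 135 CPM with a median of 119 on Western diet and between 67.9 and 97.5 CPM with a median of 79.2 on low-fat diet, again without overlap, at a log2 fold change of 0.55 ± 0.080 (SE; edgeR adjusted p = 2.02e-05). Gstm2 rose by 0.92 with an edgeR adjusted p of 0.00225. The remaining mu class genes fell. Gstm7 lay between 52.7 and 82.8 CPM with a median of 61.4 on Western diet and between 66.5 and 95.5 CPM with a median of 81.4 on low-fat diet, with a log2 fold change of -0.36 ± 0.093 (SE; edgeR adjusted p = 0.00343). Gstm6 had one of -0.25 ± 0.088 (SE; edgeR adjusted p = 0.0255), a call lost without Western diet liver 5, 17 or 23, at -0.22, -0.24 and -0.22. So the mu class split into 4 genes that rose and 2 that fell.

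In the pi class, Gstp1 lay between 101 and 175 CPM with a median of 149.8 on Western diet and between 106 and 439 CPM with a median of 172 on low-fat diet, and did not pass, at a log2 fold change of -0.47 ± 0.23 (SE; edgeR adjusted p = 0.104). Its copy Gstp2 averaged 1.45 ± 0.632 CPM on Western diet and 0.515 ± 0.318 CPM on low-fat diet and rose by 1.46 at an adjusted p of 0.00241; it passed the low-count filter through the Western diet livers and shares much of its sequence with another gene. In the theta class, Gstt1 lay between 225 and 407 CPM with a median of 296 on Western diet and between 224 and 405 CPM with a median of 314 on low-fat diet, at -0.13 ± 0.13 (SE; edgeR adjusted p = 0.474), and did not pass. Gstt3 lay between 24.1 and 60.4 CPM with a median of 38.6 on Western diet and between 39.4 and 112 CPM with a median of 69.3 on low-fat diet. Gstt3 fell, with overlapping ranges, at -0.80 ± 0.19 (SE; edgeR adjusted p = 0.00191); 524 bases of its exons overlap Gm20441, so its reads are partly ambiguous. Gsto1, of the omega class, averaged 54.5 ± 5.97 CPM on Western diet and 65.4 ± 6.77 CPM on low-fat diet, and fell, with a log2 fold change of -0.26 ± 0.074 (SE; edgeR adjusted p = 0.00727). Gstz1, of the zeta class and also an enzyme of tyrosine breakdown, had a log2 fold change of -0.23 ± 0.090 (SE; edgeR adjusted p = 0.0467), and this call was lost in 12 of 26 alternatives, among them the omission of 5 single Western diet livers (5, 14, 17, 23 and 34) and of 5 low-fat livers (12, 18, 20, 21 and 25), with values from -0.24 to -0.19; its exons also overlap Pomt2 on the other strand. Among the microsomal enzymes, Mgst3 rose by 0.95 at an adjusted p of 7.37e-04, while Mgst1 did not pass, at 0.005 ± 0.086 (SE; edgeR adjusted p = 0.972).

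Outside the transferases, the quinone reductase Nqo1, a textbook NRF2 target, lay between 15.5 and 23.5 CPM with a median of 17.5 on Western diet and between 4.76 and 13.4 CPM with a median of 6.77 on low-fat diet. The ranges did not meet, and Nqo1 rose by 1.25 ± 0.17 (SE; edgeR adjusted p = 1.24e-05). Srxn1, sulfiredoxin, which repairs over-oxidized peroxiredoxins, lay between 94.5 and 153 CPM with a median of 134 on Western diet and between 46.4 and 70.3 CPM with a median of 53.3 on low-fat diet. It was separated just as cleanly, at 1.15 ± 0.15 (SE; edgeR adjusted p = 8.18e-06). Abcc4, which exports conjugates and bile acids into blood, lay between 5.73 and 15.3 CPM with a median of 12.5 on Western diet and between 1.25 and 4.27 CPM with a median of 2.57 on low-fat diet. Every Western diet liver exceeded every low-fat liver, at 2.08 ± 0.26 (SE; edgeR adjusted p = 4.14e-06). Haem oxygenase Hmox1 lay between 25.6 and 50.6 CPM with a median of 34.0 on Western diet and between 10.7 and 22.9 CPM with a median of 19.4 on low-fat diet, and rose by 0.98 ± 0.18 (SE; edgeR adjusted p = 1.78e-04). Microsomal epoxide hydrolase Ephx1 rose by 0.57 at an adjusted p of 4.09e-04, so all 4 genes of the quinone, haem, epoxide and export group rose.

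The enzymes that make glutathione were divided. Gclc lay between 361 and 539 CPM with a median of 424 on Western diet and between 377 and 637 CPM with a median of 449 on low-fat diet, and its partner Gclm lay between 171 and 201 CPM with a median of 184 on Western diet and between 169.8 and 237.6 CPM with a median of 200.5 on low-fat diet. Neither passed, at log2 fold changes of -0.16 ± 0.13 (SE; edgeR adjusted p = 0.341) and -0.10 ± 0.071 (SE; edgeR adjusted p = 0.264). Gss, the second enzyme of the pathway, averaged 109 ± 21.5 CPM on Western diet and 63.7 ± 9.97 CPM on low-fat diet, and rose by 0.78 ± 0.12 (SE; edgeR adjusted p = 3.30e-05); its exons overlap 3 genes on the other strand. Gsr rose by 0.22 at an adjusted p of 0.00863. Slc7a11, the cystine importer, lay between 0.537 and 1.94 CPM with a median of 0.758 on Western diet and between 0 and 0.728 CPM with a median of 0.313 on low-fat diet, a few counts per library, passed the low-count filter through the Western diet livers and rose by 1.31 ± 0.40 (SE; edgeR adjusted p = 0.0118). Among the selenium-dependent peroxidases, Gpx3 and Gpx4 rose by 1.18 and 0.78 (adjusted p 9.42e-04 and 2.78e-04), and Gpx1 did not pass; 34.7% of the 50-base stretches of Gpx4 occur in another gene. Thioredoxin reductase Txnrd1 lay between 149 and 183 CPM with a median of 175 on Western diet and between 148 and 203 CPM with a median of 169.6 on low-fat diet, with no call at -0.020 ± 0.068 (SE; edgeR adjusted p = 0.84); Txn1 and Prdx1 did not pass either.

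Catalase and both superoxide dismutases fell. Cat lay between 2111 and 3311 CPM with a median of 2406 on Western diet and between 3014 and 3519 CPM with a median of 3251 on low-fat diet, with a log2 fold change of -0.33 ± 0.095 (SE; edgeR adjusted p = 0.00739). Cytosolic Sod1 lay between 392 and 545 CPM with a median of 411 on Western diet and between 489.6 and 678 CPM with a median of 551 on low-fat diet, at -0.36 ± 0.090 (SE; edgeR adjusted p = 0.0029). The ranges of both overlapped. Mitochondrial Sod2 fell by 0.18 at an adjusted p of 0.0375. Among D502 livers alone, Gsta3, Gstm6, Gstm7, Gsto1, Gstz1, Cat, Sod1 and Sod2 were not called, at log2 fold changes from -0.34 to -0.14.

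Markers of other cells moved with diet. All 10 markers of monocytes and macrophages were called higher, with a summed level of 270.5 to 728 CPM on Western diet and 81.0 to 221 CPM on low-fat diet, all 8 of dividing cells were higher (14.5 to 51.1 CPM against 5.64 to 11.4 CPM), and 8 of 9 hepatocyte markers tested were lower (62551 to 93324 CPM against 96996 to 132775 CPM). Their part in the member results was not tested. In whole liver, fewer cells of a type and less RNA per cell cannot be told apart.

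**Figure D2:**
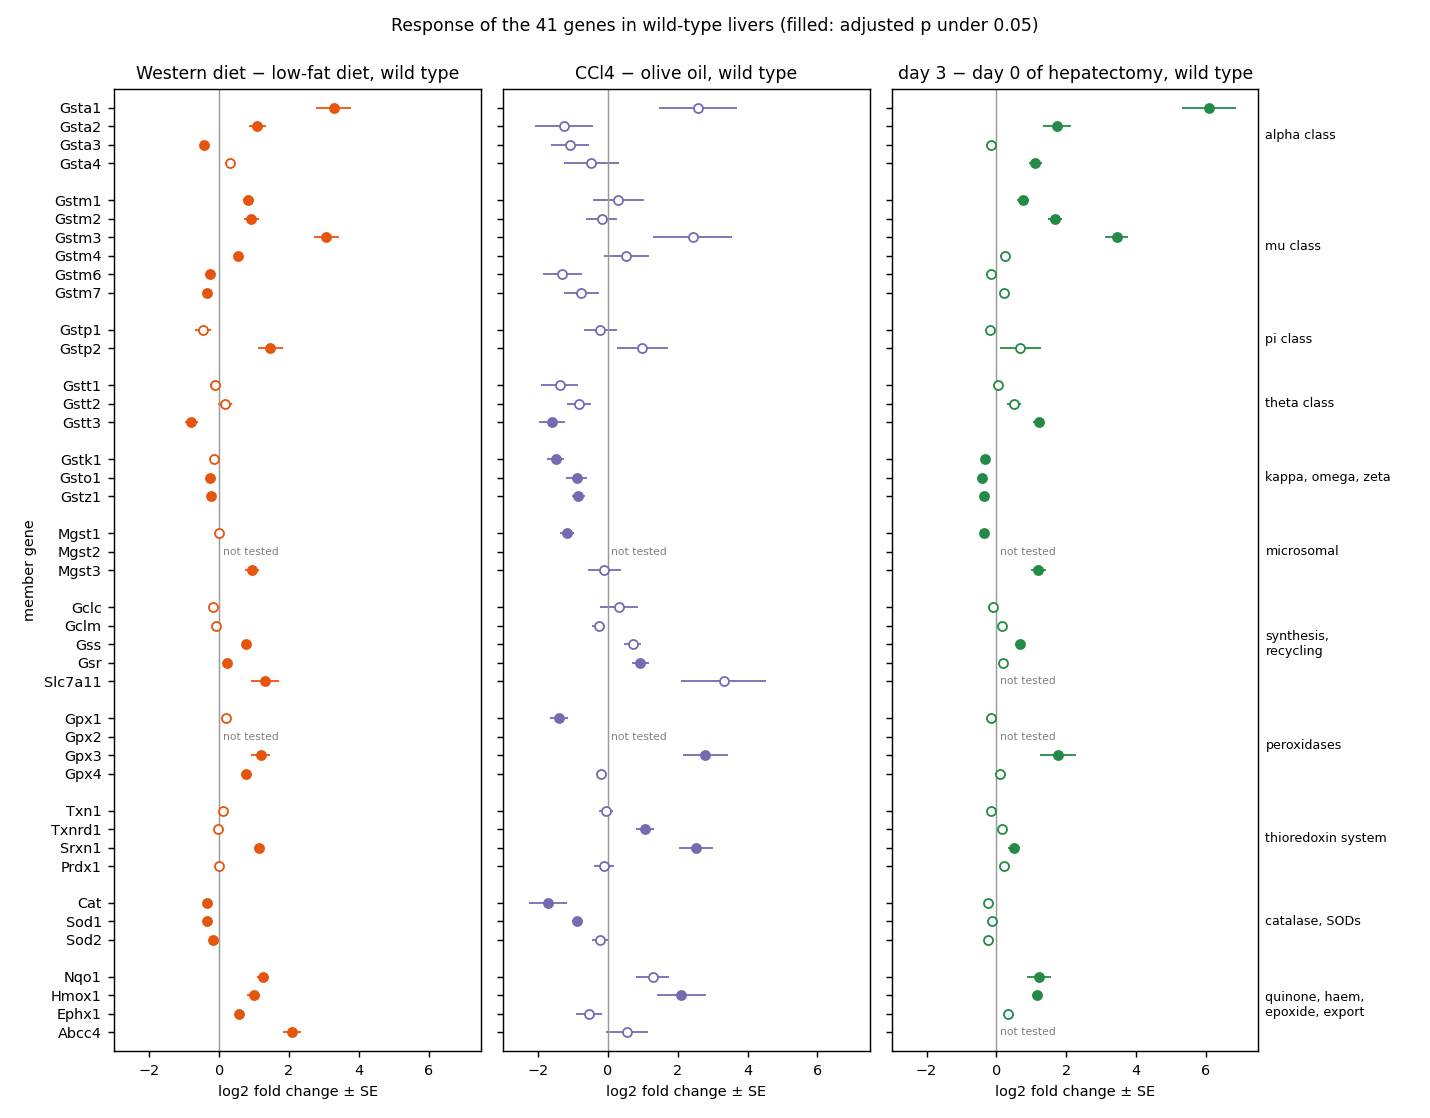
Log2 fold change with its standard error (horizontal axis) of each of the 41 genes in wild-type livers for Western diet against low-fat diet, CCl4 against olive oil, and day 3 against day 0 of hepatectomy, grouped by role. Filled points passed an edgeR adjusted p of 0.05: 18 higher and 9 lower on Western diet, 5 and 8 after CCl4, 13 and 4 after hepatectomy; the CCl4 error bars are wider than those of the other panels for most genes.

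CCl4 against olive oil asks how the same genes stood 3 days after an acute toxin. Of 39 members tested, 5 rose (Srxn1, Gpx3, Txnrd1, Gsr and Hmox1), 8 fell (Gstk1, Mgst1, Sod1, Gpx1, Gstz1, Gstt3, Cat and Gsto1) and 26 did not pass, beside 11.1% of all 11663 genes called higher and 8.87% called lower. Of the 12 alpha, mu and pi class genes edgeR called 0, with 3 at an unadjusted p under 0.05. No share of all genes at that unadjusted p is set beside the 3, so they are not read as a result about these classes. The median log2 fold change was -0.18 over the members and 0.054 over all genes. The counts depend on which olive oil livers serve as controls: with the 3 D505 controls alone, 0 members rose and 5 fell, beside 2.92% of all genes higher and 3.03% lower. With the 3 D504 controls alone 3 rose and 5 fell, beside 6.54% and 5.6%. With CCl4 livers 34 and 35 left out, 8 rose and 12 fell, beside 13% and 11.9%. No index holds both CCl4 and olive oil wild-type livers except D505, with 1 CCl4 liver, so a within-index comparison was not made. With the index as a covariate 5 rose and 15 fell, beside 15.7% and 15.1%. Txnrd1 and Gstt3 were then not called, at log2 fold changes of 0.73 and -1.10. In that fit wild-type CCl4 livers 4, 5 and 7 carried index D503, which held no olive oil liver. They were set against the controls only by way of CCl4 livers 22, 34 and 35, of which 22 and 35 were labelled knockout. The covariate fit therefore does not separate the index from the wild-type CCl4 response.

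Of the 4 thioredoxin system genes Srxn1 and Txnrd1 rose, as did glutathione reductase. Srxn1 stood at 99.3, 285, 643 and 144 CPM in CCl4 livers 4, 5, 7 and 34, against a range of 41.9 to 62.9 CPM with a median of 49.2 after olive oil. All 4 were above every olive oil liver and liver 7 was the highest, at a log2 fold change of 2.53 ± 0.48 (SE; edgeR adjusted p = 0.00237). Txnrd1, which keeps thioredoxin reduced, stood at 159.8, 337, 467 and 251 CPM in CCl4 livers 4, 5, 7 and 34, against a range of 135 to 159 CPM with a median of 143 after olive oil. It did not overlap either, although liver 4 was level with the highest control, and it rose by 1.07 ± 0.26 (SE; edgeR adjusted p = 0.01). Gsr stood at 74.6, 133, 171 and 168 CPM in CCl4 livers 4, 5, 7 and 34, against a range of 56.1 to 93.7 CPM with a median of 66.3 after olive oil. Liver 4 lay inside the control range; Gsr rose by 0.93 ± 0.25 (SE; edgeR adjusted p = 0.0158), a call lost without liver 7, at 0.79. Txn1 and Prdx1 did not pass.

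Gpx3 and Hmox1 rose with liver 34 far above the rest. Gpx3, a secreted peroxidase, stood at 27.4, 21.5, 14.5 and 107 CPM in CCl4 livers 4, 5, 7 and 34, against a range of 3.59 to 9.30 CPM with a median of 5.47 after olive oil. It did not overlap, at 2.79 ± 0.63 (SE; edgeR adjusted p = 0.00639), and without liver 34 its log2 fold change was 1.79, still called. Hmox1 stood at 46.3, 29.7, 37.3 and 272 CPM in CCl4 livers 4, 5, 7 and 34, against a range of 9.03 to 43.8 CPM with a median of 20.1 after olive oil. Livers 5 and 7 were inside the control range; the log2 fold change of 2.10 ± 0.70 (SE; edgeR adjusted p = 0.0449) became 0.75 without liver 34, which was not called, and the call was also lost without olive oil liver 24, 26, 27, 28 or 29 (values from 1.94 to 2.18). Slc7a11 stood at 4.11, 0, 1.57 and 17.7 CPM in CCl4 livers 4, 5, 7 and 34, against a range of 0.252 to 0.721 CPM with a median of 0.531 after olive oil, and did not pass at 3.32 ± 1.22 (SE; edgeR adjusted p = 0.0651). Liver 34 also had the highest sum of monocyte and macrophage markers among the wild-type CCl4 livers, 939 CPM, and its neutrophil markers summed to 211 CPM, against 68.3, 7.60 and 14.5 CPM in livers 4, 5 and 7. The part of these cells in the result was not tested.

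Members that fell included all 3 transferases of the kappa, omega and zeta classes. Mitochondrial and peroxisomal Gstk1 stood at 55.2, 44.6, 43.4 and 21.3 CPM in CCl4 livers 4, 5, 7 and 34, against a range of 109 to 123 CPM with a median of 118 after olive oil, and fell by 1.49 ± 0.24 on the log2 scale (SE; edgeR adjusted p = 8.91e-04). Gstz1 stood at 526.4, 459, 459.7 and 276 CPM in CCl4 livers 4, 5, 7 and 34, against a range of 692 to 851 CPM with a median of 771 after olive oil, at -0.85 ± 0.19 (SE; edgeR adjusted p = 0.00545). Both were below every control. Gsto1 averaged 57.7 ± 31.1 CPM after CCl4 and 107 ± 19.7 CPM after olive oil, overlapped, and had a log2 fold change of -0.89 ± 0.30 (SE; edgeR adjusted p = 0.048); the call was lost in 12 of 20 alternatives, among them without CCl4 liver 4, 5 or 7 and without olive oil liver 24, 26, 27, 29 or 30, at values from -0.93 to -0.72. Mgst1 stood at 1629, 1488, 1691 and 1046 CPM in CCl4 livers 4, 5, 7 and 34, against a range of 2631 to 3722 CPM with a median of 3577 after olive oil, at -1.17 ± 0.19 (SE; edgeR adjusted p = 9.78e-04). Gstt3 stood at 18.5, 11.3, 12.1 and 8.23 CPM in CCl4 livers 4, 5, 7 and 34, against a range of 25.5 to 57.1 CPM with a median of 35.1 after olive oil, at -1.60 ± 0.36 (SE; edgeR adjusted p = 0.00627). Neither gene overlapped its controls.

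Sod1, Gpx1 and Cat, which remove superoxide and hydrogen peroxide, fell, whereas Gpx3 rose (above) and Sod2, Gpx4 and Prdx1 did not pass. Sod1 stood at 318, 324, 369.8 and 288 CPM in CCl4 livers 4, 5, 7 and 34, against a range of 547 to 627 CPM with a median of 604 after olive oil, with a log2 fold change of -0.87 ± 0.16 (SE; edgeR adjusted p = 0.00177). Gpx1, the main cytosolic glutathione peroxidase, stood at 537, 748, 833 and 376 CPM in CCl4 livers 4, 5, 7 and 34, against a range of 1288 to 2269 CPM with a median of 1559 after olive oil, at -1.41 ± 0.26 (SE; edgeR adjusted p = 0.00191). Cat stood at 770.0, 1464, 1752 and 141 CPM in CCl4 livers 4, 5, 7 and 34, against a range of 2955 to 3955 CPM with a median of 3284 after olive oil. None of these 3 overlapped with olive oil, and liver 34 was the lowest for each. Cat had a log2 fold change of -1.71 ± 0.54 (SE; edgeR adjusted p = 0.0357), and its call was lost without CCl4 liver 4 or olive oil liver 24, 27 or 28, at values from -1.71 to -1.60. Pericentral hepatocyte markers moved in the same direction: 6 of 9 tested were called lower and their sum was 857 to 1523 CPM after CCl4, against 6288 to 13458 CPM after olive oil. Of 10 macrophage markers 7 were higher, as were all 8 of dividing cells. Stellate cell markers, 4 of 8 called higher, summed to 341 to 1020 CPM after CCl4 and 78.2 to 193 CPM after olive oil. Mitochondrial genes took 6.44 to 7.14% of counts after CCl4 and 8.42 to 10.1% after olive oil, also without overlap. Their part was not tested.

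Classical NRF2 targets and alpha and mu transferases differed widely from liver to liver after CCl4. Gstm3 stood at 9.13, 328, 1226 and 4.60 CPM in CCl4 livers 4, 5, 7 and 34, against a range of 25.7 to 148 CPM with a median of 56.8 after olive oil. Livers 5 and 7 were above every control and livers 4 and 34 below every control, so its log2 fold change of 2.43 ± 1.14 (SE; edgeR adjusted p = 0.142) did not pass. Gsta1 stood at 6.39, 103, 255 and 12.8 CPM in CCl4 livers 4, 5, 7 and 34, against a range of 0.476 to 48.3 CPM with a median of 3.18 after olive oil, at 2.58 ± 1.11 (SE; edgeR adjusted p = 0.112). Gstm1 stood at 317, 2376, 5218 and 343 CPM in CCl4 livers 4, 5, 7 and 34, against a range of 870.1 to 2605 CPM with a median of 1485 after olive oil, at 0.30 ± 0.73 (SE; edgeR adjusted p = 0.805). In both, livers 5 and 7 were again the highest of the 4. Nqo1 stood at 7.76, 20.4, 32.5 and 6.78 CPM in CCl4 livers 4, 5, 7 and 34, against a range of 3.83 to 12.8 CPM with a median of 5.97 after olive oil, at 1.28 ± 0.48 (SE; edgeR adjusted p = 0.0698). Gclc stood at 135, 569, 846 and 119 CPM in CCl4 livers 4, 5, 7 and 34, against a range of 223 to 509.9 CPM with a median of 328 after olive oil, at 0.31 ± 0.54 (SE; edgeR adjusted p = 0.721), and Gclm at 128, 179.8, 207 and 193 CPM in CCl4 livers 4, 5, 7 and 34, against a range of 174 to 246 CPM with a median of 208 after olive oil, at -0.26 ± 0.19 (SE; edgeR adjusted p = 0.343). For Nqo1 and Gclc too, liver 7 was the highest and liver 5 next, while for Gclm liver 4 alone lay below the controls.

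Gstp1 stood at 813, 915, 1155 and 158 CPM in CCl4 livers 4, 5, 7 and 34, against a range of 489 to 1279.9 CPM with a median of 827 after olive oil, with liver 34 alone below the controls, at -0.21 ± 0.47 (SE; edgeR adjusted p = 0.789). Gstt1 stood at 62.8, 136, 127 and 11.6 CPM in CCl4 livers 4, 5, 7 and 34, against a range of 184 to 258 CPM with a median of 225 after olive oil. All 4 values were below every control, yet the spread among them was wide and Gstt1 did not pass, at -1.37 ± 0.53 (SE; edgeR adjusted p = 0.0755). Across the 39 members with a mean of at least 1 CPM, liver 7 was the highest of the 4 wild-type CCl4 livers for 28 and liver 34 the lowest for 25. Among the 6 CCl4 livers labelled knockout, liver 12 was the highest for 25 and liver 35 the lowest for 23. These ranks were not counted over all genes, so they are not read as particular to the members. The median SD of log2 levels over members was 1.12 among wild-type and 0.781 among knockout-labelled CCl4 livers, against 0.432 and 0.424 for all genes in the same livers. In the other 7 groups the members' median SD lay between 0.178 and 0.326.

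Olive oil controls differed by index. For 17 of the 39 members tested (43.6%) the 3 D505 livers and the 3 D504 livers did not overlap, against 25.6% of all genes, and 12 of the 17 were higher in D505 livers. Direction was not counted over all genes. Gsta1 was 4.30 to 48.3 CPM in D505 livers and 0.476 to 2.06 CPM in D504 livers. Gstm1 was 1426 to 2605 CPM in D505 livers and 870.1 to 1545 CPM in D504 livers, with overlap. Gstm3 was 64.6 to 148 CPM in D505 livers and 25.7 to 49.0 CPM in D504 livers. Among members lower in D505 livers, Gstp1 was 489 to 626 CPM there and 1027 to 1279.9 CPM in D504 livers. Likewise Gpx1 was 1288 to 1424 CPM in D505 livers and 1693 to 2269 CPM in D504 livers. These are controls of 1 group, and what else separated the indices is not given in the labels.

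**Figure D3:**
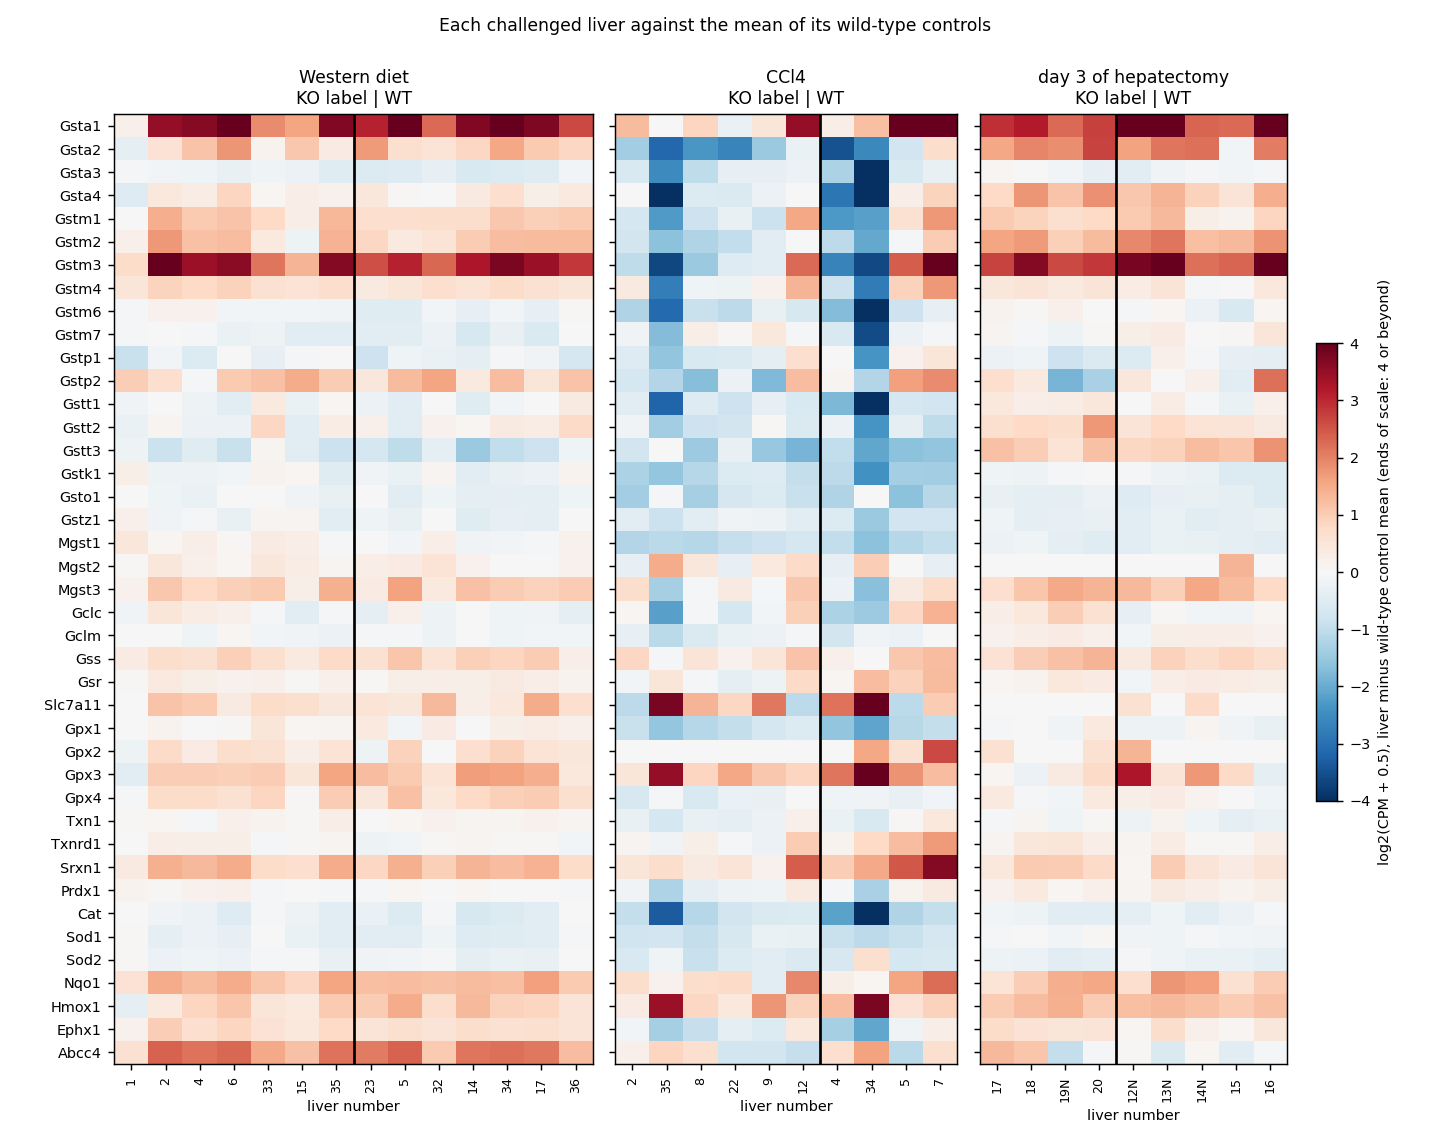
Each row is 1 of the 41 genes and each column 1 challenged liver, with the colour giving log2(CPM + 0.5) of that liver minus the mean of its wild-type controls; livers labelled knockout stand left of the black line and wild-type livers right of it. After CCl4, livers 34 and 35 are blue for most transferases and catalase and red for Gpx3 and Hmox1. Livers 5, 7 and 12 are red for Gstm3, Gsta1 and Srxn1.

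Day 3 against day 0 of partial hepatectomy asks how the genes stood in regenerating liver. Of the 37 members tested, 13 rose, 4 fell and 20 did not pass, beside 9.87% of all 11026 genes called higher and 7.5% called lower. Gsta1 and Gstm3 rose most, 3 of 4 alpha class and 3 of 6 mu class genes rose, and all 3 kappa, omega and zeta class genes fell. Among those that rose, Gsta1 was tested only because of its day 3 counts, as given below. The median log2 fold change was 0.23 over the members and -0.005 over all genes. The day 3 libraries carried 1 index and the day 0 libraries others, so day and index cannot be told apart.

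Gstm3 had 219, 241, 656, 745 and 777 CPM at day 3, against 29.1, 49.0, 51.1, 52.6 and 59.8 CPM at day 0. The groups were far apart, and Gstm3 rose by 3.44 ± 0.33 (SE; edgeR adjusted p = 7.24e-07) on the log2 scale. Gstm2 had 52.9, 57.5, 80.8, 88.3 and 102 CPM at day 3, against 13.8, 24.0, 24.3, 27.6 and 28.0 CPM at day 0. It rose by 1.69 ± 0.20 (SE; edgeR adjusted p = 6.96e-06), without overlap. Gstm1 had 1031, 1085, 1668, 1909.5 and 2256 CPM at day 3, against 834, 866, 896, 926 and 1134 CPM at day 0. Its ranges met, since 2 of the day 3 livers lay below the highest day 0 liver, and it rose by 0.77 ± 0.17 (SE; edgeR adjusted p = 0.00331). Gsta1 had 2.36, 2.503, 11.6, 13.3 and 16.6 CPM at day 3, against 0, 0, 0, 0.262 and 0.304 CPM at day 0. That is 155 counts over the day 3 livers and 2 over the day 0 livers, a ratio of levels of 93.98 with a 95% counting interval of 25.6 to 783; the edgeR adjusted p was 1.62e-05. Gsta1 passed the low-count filter through its day 3 counts, and its near-copy Gm3776, listed in this table, averaged 4.39 CPM at day 3 and 0.361 CPM at day 0. Gsta4 had 60.7, 81.2, 90.6, 109 and 116 CPM at day 3, against 39.5, 41.3, 42.1, 43.5 and 45.3 CPM at day 0, a clean separation at 1.11 ± 0.18 (SE; edgeR adjusted p = 2.37e-04). Gsta2 rose by 1.73 (adjusted p 0.00411), and Gsta3 did not pass.

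Gstt3, which fell under both other challenges, had 39.5, 42.1, 48.6, 52.6 and 77.3 CPM at day 3, against 16.4, 21.3, 22.5, 22.8 and 29.0 CPM at day 0. It rose without overlap, at 1.22 ± 0.18 (SE; edgeR adjusted p = 8.05e-05). Gstt1 had 162, 182, 194, 223 and 236 CPM at day 3, against 156, 172, 201, 204 and 243 CPM at day 0, and did not pass at 0.030 ± 0.12 (SE; edgeR adjusted p = 0.9). Gstp1 had 542, 618, 626, 764 and 902 CPM at day 3, against 691, 739, 819, 836 and 856 CPM at day 0, also not called, at -0.19 ± 0.14 (SE; edgeR adjusted p = 0.384). In contrast Gstz1 had 591, 591, 618, 639 and 665 CPM at day 3, against 763, 788, 796, 802 and 817 CPM at day 0. It fell without overlap, at -0.35 ± 0.078 (SE; edgeR adjusted p = 0.00311). Gsto1 had 56.1, 56.9, 64.1, 65.9 and 66.1 CPM at day 3, against 73.9, 76.4, 82.6, 87.0 and 91.8 CPM at day 0, likewise separate, at -0.41 ± 0.093 (SE; edgeR adjusted p = 0.00368). Mgst1 had 2606, 2610.0, 2811, 2911 and 2993 CPM at day 3, against 3288, 3295, 3534, 3712 and 4121 CPM at day 0, at -0.37 ± 0.096 (SE; edgeR adjusted p = 0.0106), below every day 0 liver. Gstk1 had 65.3, 66.2, 80.1, 84.0 and 90.9 CPM at day 3, against 82.7, 93.1, 100.3, 102 and 103 CPM at day 0. Its groups overlapped, and its log2 fold change of -0.32 ± 0.11 (SE; edgeR adjusted p = 0.0442) was not called in 10 of 17 alternatives, among them without day 3 liver 14N, 15 or 16 or day 0 liver 12N, 14, 15 or 16, at values from -0.33 to -0.26. Mgst3 rose by 1.202 (adjusted p 8.31e-04).

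Hmox1 had 29.4, 32.9, 32.9, 33.5 and 35.9 CPM at day 3, against 10.4, 11.6, 15.7, 16.5 and 18.5 CPM at day 0. The day 3 livers were tightly grouped above all day 0 livers, and Hmox1 rose by 1.16 ± 0.16 (SE; edgeR adjusted p = 2.89e-05). Nqo1 had 6.04, 6.23, 8.12, 12.9 and 13.9 CPM at day 3, against 2.54, 2.74, 3.58, 4.26 and 6.81 CPM at day 0. It rose by 1.22 ± 0.34 (SE; edgeR adjusted p = 0.0153) with overlap, and was not called without day 3 liver 13N, at 1.02. Srxn1 had 57.9, 67.8, 78.3, 78.5 and 109.8 CPM at day 3, against 42.3, 47.0, 57.6, 63.5 and 64.5 CPM at day 0. The ranges overlapped, and its log2 fold change of 0.50 ± 0.16 (SE; edgeR adjusted p = 0.0368) was lost without day 3 liver 13N, 14N or 16 or day 0 liver 12N, 14 or 16, at values from 0.35 to 0.52. Gpx3 had 5.03, 9.79, 11.6, 23.2 and 67.2 CPM at day 3, against 3.95, 4.92, 7.05, 7.86 and 11.9 CPM at day 0. Liver 12N alone carried the highest value; the log2 fold change was 1.76 ± 0.50 (SE; edgeR adjusted p = 0.0189) with it and 0.82, not called, without it. Gss rose by 0.68 (adjusted p 0.00212).

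The rate-limiting ligase and the reductases did not pass. Gclc had 219, 248, 254, 282 and 291 CPM at day 3, against 238.5, 244, 283, 285 and 336 CPM at day 0, at -0.10 ± 0.13 (SE; edgeR adjusted p = 0.648). Gclm had 179, 214, 225, 229 and 232 CPM at day 3, against 184, 186, 187, 195 and 209 CPM at day 0, at 0.17 ± 0.086 (SE; edgeR adjusted p = 0.208). Txnrd1 had 171, 171, 178, 201 and 204 CPM at day 3, against 146, 167, 168, 175 and 178 CPM at day 0, at 0.15 ± 0.095 (SE; edgeR adjusted p = 0.312). In all 3 the day 3 and day 0 values overlapped. Cat, Sod1 and Sod2 were not called either, with log2 fold changes of -0.25, -0.13 and -0.23. At day 3 all 8 markers of dividing cells were higher (141 to 334 CPM, against 5.37 to 16.4 CPM at day 0), 5 of 8 stellate cell markers were higher, 4 of 10 pericentral markers were lower and 0 of 5 macrophage markers tested were called, at an unadjusted p under 0.05 also 0. Hepatocyte markers summed to 142403 to 165638 CPM at day 3, against 97289 to 117569 CPM at day 0, without overlap, although of 9 tested 2 were called higher and 2 lower. Their part was not tested.

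**Figure D4:**
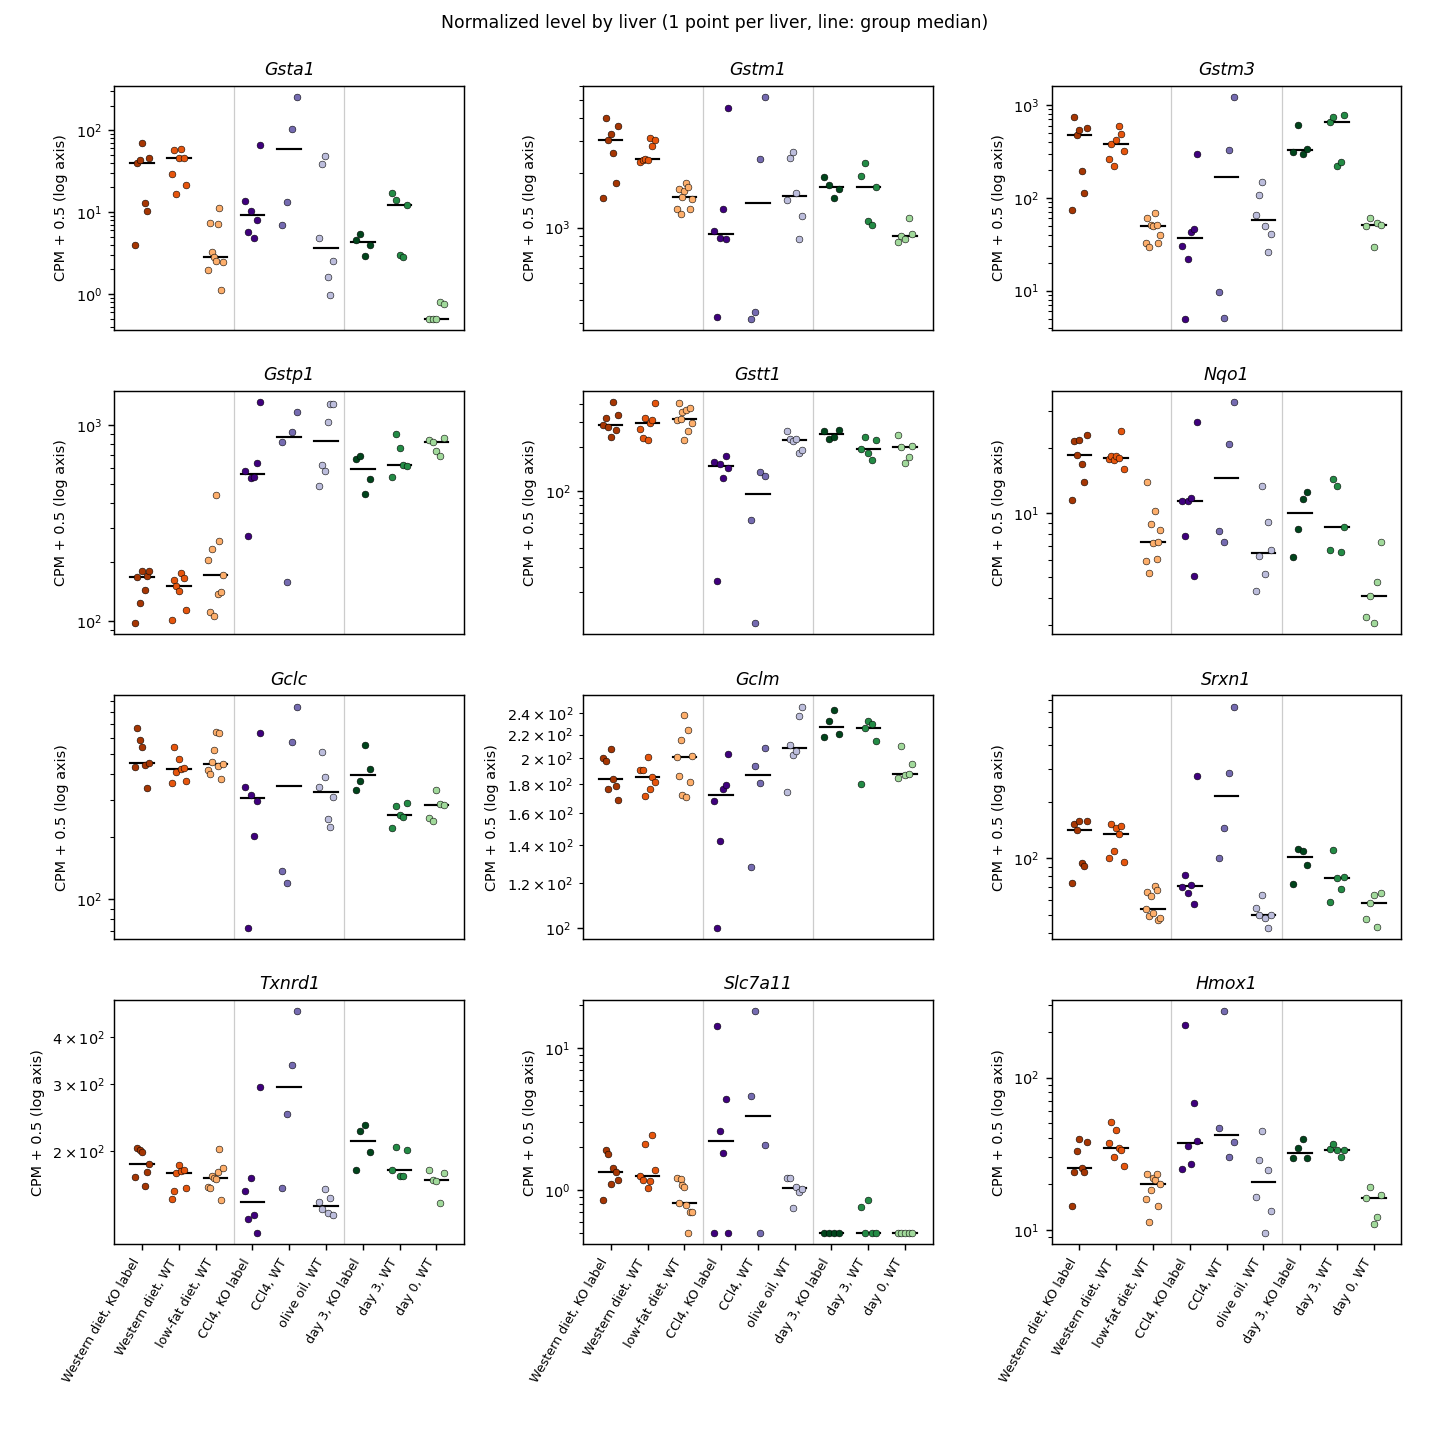
Level in CPM + 0.5 on a log axis of 12 of the genes in each liver, 1 point per liver, for the 9 groups, with the line at the group median. For Gstm3, Gsta1, Nqo1, Srxn1 and Hmox1 the wild-type Western diet and day 3 points mostly lie above their controls, and the wild-type CCl4 points of Gstm3 and Gsta1 spread widely.

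Read across challenges, 3 members rose under all 3 (Srxn1, Hmox1 and Gpx3) and 8 rose on Western diet and at day 3 but were not called after CCl4 (Gsta1, Gsta2, Gstm1, Gstm2, Gstm3, Mgst3, Gss and Nqo1). Gsto1 and Gstz1 fell under all 3, Cat and Sod1 on Western diet and after CCl4, and Gstk1 and Mgst1 after CCl4 and at day 3. Several of these calls were lost with single livers left out, as given above. They include Gstz1 on Western diet, Gsto1, Hmox1 and Cat after CCl4, and Gstk1, Srxn1, Gpx3 and Nqo1 at day 3. Gstt3 alone was called in opposite directions. No call was made under any challenge for 7 tested members, namely Gstp1, Gstt1, Gstt2, Gclc, Gclm, Txn1 and Prdx1. How many of all genes show each pattern was not counted, so these patterns are not read as particular to the members. A call under 1 challenge and not another does not show a difference, so the responses were compared directly in 1 fit of all 53 libraries.

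The CCl4 response was higher than the Western diet response for 3 members and lower for 12, beside 8.37% of 12646 genes higher and 7.72% lower. Txnrd1 had a difference of 1.08 ± 0.21 (SE; edgeR adjusted p = 3.71e-04) on the log2 scale, Srxn1 one of 1.38 ± 0.41 (SE; edgeR adjusted p = 0.0162) and Gsr one of 0.69 ± 0.20 (SE; edgeR adjusted p = 0.0135). Without CCl4 liver 7, Srxn1 and Gsr had differences of 0.62 and 0.53 and were not called. The responses of Gpx1, Mgst1 and Gstk1 were lower after CCl4, by 1.60, 1.18 and 1.34 (adjusted p 2.61e-06, 2.07e-06 and 1.55e-05). So were those of Gsta2, Abcc4, Cat, Gstt1, Ephx1, Gpx4, Gsto1, Gstz1 and Sod1, with adjusted p between 0.00172 and 0.047. The Gstt1 difference of -1.24 was lost without CCl4 liver 4 or 34 or Western diet liver 36, at values from -1.13 to -0.88, and the Gsta2 difference of -2.34 was -3.51 without CCl4 liver 7. Abcc4 lost its call in 19 of 32 alternatives and Gsto1 in 18 of 32, which include the omission of CCl4 liver 4, 5 or 7 for each; Gsto1 had -1.07 without liver 34.

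Against hepatectomy, the CCl4 response was higher for 3 members and lower for 8, beside 2.29% and 3.8% of 12646 genes. Srxn1 differed by 2.03 ± 0.46 (SE; edgeR adjusted p = 0.00533), Txnrd1 by 0.92 ± 0.24 (SE; edgeR adjusted p = 0.0136) and Gsr by 0.72 ± 0.23 (SE; edgeR adjusted p = 0.044). Without CCl4 liver 7 the Srxn1 difference was 1.27 and still called, and that of Txnrd1 was 0.61 and not called; Gsr lost its call in 16 of 26 alternatives. Gstt3 had the smallest adjusted p, with a difference of -2.82 ± 0.41 (SE; edgeR adjusted p = 1.15e-05) that held in all 26 alternatives. Gpx1, Gstk1, Mgst1 and Sod1 were lower by 1.25, 1.17, 0.81 and 0.75, and Gsta2, Gstm2 and Cat also passed. Gsta2, Gstm2 and Cat lost their calls without CCl4 liver 34, at -2.66, -1.54 and -1.09. Western diet and hepatectomy responses differed for 2 members. Abcc4 was higher on Western diet by 2.38 ± 0.65 (SE; edgeR adjusted p = 0.0289) and Gstt3 lower, at -2.01 ± 0.35 (SE; edgeR adjusted p = 4.90e-04), beside 1.53% of 12646 genes higher and 2% lower. Abcc4 had too few counts for a test within the surgery table, where it averaged 1.73 CPM at day 3 and 2.12 CPM at day 0, and lost this call without day 3 liver 13N or 15 or day 0 liver 12N, 13 or 16, at values from 2.28 to 2.33. The tables were made separately, so only responses measured within a table enter these differences.

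The genotype label was tested within each challenge, as livers labelled knockout minus wild type. On Western diet 0 of 39 members were called, beside 0.0154% of all genes, and 3 had an unadjusted p under 0.05. After CCl4 0 of 39 were called, beside 0.00857%, and 7 had such a p. At day 3 of hepatectomy 1 of 37 was called, beside 0.154%, and 8 had such a p. Averaged over the 3 challenges 0 of 39 were called, beside 0.15%, and 10 had such a p. DESeq2 also called 0, 0, 1 and 0. With no filter on low counts 2 members were called at day 3. On average voom called 1, and 3 were called without CCl4 liver 35. The shares of all genes above are at the adjusted threshold. None is set beside the counts at an unadjusted p, so those counts are read neither as a label effect on the members nor as its absence.

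Gclc, the catalytic subunit that sets the rate of glutathione synthesis, was the 1 called member. It had 334, 372, 422 and 549 CPM in livers labelled knockout, against 219, 248, 254, 282 and 291 CPM in wild-type livers at day 3, with no overlap. Gclc was higher by 0.70 ± 0.13 (SE; edgeR adjusted p = 0.044), and the call was lost in 8 of 15 alternatives, among them without knockout-labelled liver 18, 19N or 20 or wild-type liver 12N, 14N, 15 or 16, at values from 0.54 to 0.75. Its partner Gclm had 218, 220.4, 232 and 242 CPM in livers labelled knockout and 179, 214, 225, 229 and 232 CPM in wild-type livers, at 0.078 ± 0.092 (SE; edgeR adjusted p = 0.865). Under the other challenges Gclc lay between 342 and 665 CPM with a median of 453 in livers labelled knockout and between 361 and 539 CPM with a median of 424 in wild-type livers on Western diet, at 0.20 ± 0.14 (SE; edgeR adjusted p = 0.822). After CCl4 the livers labelled knockout lay between 71.8 and 630.0 CPM with a median of 307, against 119, 135, 569 and 846 CPM in wild-type livers, at -0.43 ± 0.54 (SE; edgeR adjusted p = 0.927). Gpx3 at day 3 had 5.64, 7.04, 8.70 and 11.7 CPM in livers labelled knockout and 5.03, 9.79, 11.6, 23.2 and 67.2 CPM in wild-type livers, at -1.50 ± 0.54 (SE; edgeR adjusted p = 0.392); without wild-type liver 12N the difference was -0.57.

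After CCl4 the reductases of glutathione and thioredoxin had the smallest p among members, without passing. Gsr lay between 54.6 and 119 CPM with a median of 66.8 in livers labelled knockout, against 74.6, 133, 168 and 171 CPM in wild-type livers, at -0.81 ± 0.25 (SE; edgeR adjusted p = 0.654). Txnrd1 lay between 121 and 295 CPM with a median of 146 in livers labelled knockout, against 159.8, 251, 337 and 467 CPM in wild-type livers, at -0.85 ± 0.26 (SE; edgeR adjusted p = 0.654). Both sets of ranges overlapped, and Txnrd1 differed by -0.55 without wild-type liver 7. Srxn1 lay between 56.7 and 274 CPM with a median of 70.6 in livers labelled knockout, against 99.3, 144, 285 and 643 CPM in wild-type livers, at -1.51 ± 0.48 (SE; edgeR adjusted p = 0.676). Liver 12 was the highest of those labelled knockout for Srxn1. On Western diet Gsta3 lay between 1387 and 1825 CPM with a median of 1730.2 in livers labelled knockout and between 1267 and 1799.7 CPM with a median of 1364 in wild-type livers, at 0.22 ± 0.090 (SE; edgeR adjusted p = 0.813), and Gstm6 lay between 104 and 129 CPM with a median of 108 in livers labelled knockout and between 82.0 and 119.9 CPM with a median of 92.7 in wild-type livers, at 0.22 ± 0.093 (SE; edgeR adjusted p = 0.813). Within index D501 the differences of Gsta3 and Gstm6 were 0.36 and 0.38, and within D502 they were 0.049 and 0.031.

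The remaining marker members of the pathway gave these differences between livers labelled knockout and wild-type livers, none called. Gsta1 had log2 differences of -0.28 ± 0.47 on Western diet, -2.43 ± 1.11 after CCl4 and -1.32 ± 0.52 at day 3 (SE). Gstm1 had 0.10 ± 0.17, -0.49 ± 0.73 and 0.071 ± 0.18 in the same order. Nqo1 had -0.027 ± 0.18, -0.53 ± 0.48 and -0.036 ± 0.34. Gsta1 was lower in livers labelled knockout each time, without passing. Gstp1 had 0.072 ± 0.24, -0.23 ± 0.47 and -0.24 ± 0.15, Gstt1 0.049 ± 0.14, 0.61 ± 0.51 and 0.31 ± 0.13, and Hmox1 -0.38 ± 0.19, -0.48 ± 0.69 and -0.010 ± 0.16. Slc7a11 had -0.22 ± 0.39 on Western diet and -0.69 ± 1.07 after CCl4, and 0 counts in all 4 livers labelled knockout at day 3.

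Genes of the same pathways outside the 41 were read from 3 lists, of 26 other glutathione genes, 36 other NRF2-linked genes and 21 other antioxidant genes. On Western diet 16 of 35 tested rose and 2 fell (median log2 fold change 0.23) in the NRF2-linked list, 6 of 23 tested rose and 5 fell (median log2 fold change 0.077) in the glutathione list and 8 of 21 tested rose and 3 fell (median log2 fold change 0.14) in the antioxidant list, beside the 20.4% and 17% of all genes given above. Cbr3, a carbonyl reductase, averaged 3.94 ± 2.16 CPM on Western diet and 0.50002 ± 0.331 CPM on low-fat diet (SD), and rose by 2.99 ± 0.47 (SE; edgeR adjusted p = 4.48e-05). It passed the low-count filter through the Western diet livers. Hpgds, a sigma class transferase that makes prostaglandin D and is expressed in immune cells, averaged 5.05 ± 2.23 CPM on Western diet and 0.987 ± 0.350 CPM on low-fat diet, and rose by 2.36 ± 0.32 (SE; edgeR adjusted p = 1.08e-05). Metallothionein Mt2 rose by 2.41, extracellular Sod3 by 1.03 and Mafk, a small MAF partner of NRF2, by 1.02. Glo1 and Hagh, which clear methylglyoxal with glutathione as cofactor, fell by 0.66 and 0.61 (adjusted p 3.39e-05 and 5.64e-05).

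After CCl4 3 of 34 tested rose and 4 fell (median log2 fold change 0.094) in the NRF2-linked list, 1 of 22 tested rose and 3 fell (median log2 fold change 0.023) in the glutathione list and 1 of 21 tested rose and 4 fell (median log2 fold change -0.19) in the antioxidant list, beside 11.1% of all genes higher and 8.87% lower. Cbr3 averaged 5.80 ± 8.54 CPM after CCl4 and 0.433 ± 0.440 CPM after olive oil, and rose by 3.68 ± 1.09 (SE; edgeR adjusted p = 0.0258), and Pgd, which makes NADPH in the pentose phosphate pathway, rose by 1.04. Cbr3 passed the low-count filter through the CCl4 livers, and its SD among the wild-type CCl4 livers exceeded its mean. Glo1 and Hagh fell again, by 1.08 and 1.12, as did Prdx6, by 0.84. At day 3 of hepatectomy 5 of 31 tested rose and 3 fell (median log2 fold change -0.011) in the NRF2-linked list, 2 of 19 tested rose and 3 fell (median log2 fold change 0.008) in the glutathione list and 5 of 21 tested rose and 2 fell (median log2 fold change 0.065) in the antioxidant list, beside 9.87% of all genes higher and 7.5% lower. Nfe2l2, which encodes NRF2 itself, averaged 108 ± 24.8 CPM at day 3 and 69.2 ± 8.96 CPM at day 0, and rose by 0.64 ± 0.15 (SE; edgeR adjusted p = 0.00507). Gstp3, another pi class gene, rose by 1.82 and Mt2 by 4.58. Glo1 fell by 0.58 and Hagh by 0.40, so both were called lower under all 3 challenges.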

How the data were processed

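Whole-liver mRNA was sequenced in 53 libraries from 3 experiments. The deposited values are raw read counts per gene, 1 table per experiment; per the submitters' processing notes TopHat2 2.0.11, HTSeq and mouse build GRCm38 were used, and the strand setting is not given in the sources used here. The surgery table lists 53379 genes and the diet and toxin tables list 38293 genes each, so levels set across tables may differ by annotation. Columns were matched to samples by their names. RNA had passed an integrity cut-off, per the labels' protocols. 

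The counts as deposited were analysed with edgeR 4.0.16 in R 4.3.3 (TMM, filterByExpr, quasi-likelihood F-test, two-sided). Each experiment was 1 model of 3 groups; differences between responses and the averaged label effect came from 1 model of 9 groups over 53 libraries and the genes common to all tables. P-values were adjusted by Benjamini-Hochberg over all genes tested, and each edgeR adjusted p printed comes from these fits. Levels are TMM-normalized CPM and fold changes edgeR's log2 estimates with SE. Within a group the labels number separate mice. Class shares and lists are described by counts and medians, with no test. Counting intervals cover counting error only. Alternatives were DESeq2 1.42.0 (test and size factors), limma 3.58.1 voom with quality weights, other low-count filters, 2-group fits, the i5 index, a mouse-number block and leaving out each liver; 4 further omissions of livers were added after seeing the data. The fits were tested on simulated data. Named genes were, per wild-type comparison, the up to 6 called members of smallest p in each direction, per label comparison the 2 of smallest p, and a set of 11 given throughout. The members, lists and rules were chosen with earlier results of these data known.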

Additional observations from a re-analysis of the deposited data

Results flagged for a closer look

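Single livers far from the rest of their group were looked for among the 29 members named above, in 255 group tests by Dixon's criterion; 16 exceeded it, and chance alone gives about 1 in 20. Of these, 7 concerned CCl4 liver 35, labelled knockout, and 1 the wild-type CCl4 liver 34, the pair whose markers of dividing cells were low and of macrophages high. This pair alone among the CCl4 livers carried index D505. In liver 35 Cat had 336 CPM, against 1515 to 2318 CPM in the other livers of its group, and Gsta3 had 252 CPM, against 733 to 1263 CPM in the other livers of its group. Gsta4 stood at 2.75 CPM, against 46.6 to 68.7 CPM in the other livers of its group. Its Gstm6 was 9.01 CPM, against 35.1 to 66.1 CPM in the other livers of its group, its Gstm7 17.8 CPM, against 54.7 to 82.3 CPM in the other livers of its group, and its Gstt1 23.3 CPM, against 122 to 174 CPM in the other livers of its group. Gpx3 was instead the highest, at 71.1 CPM, against 8.38 to 17.9 CPM in the other livers of its group. Gstm7 in liver 34 stood at 4.60 CPM, against 39.7 to 57.0 CPM in the other livers of its group. The part of those cells in these levels was not tested.

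Liver 12, also labelled knockout after CCl4, had 274 CPM, against 56.7 to 81.4 CPM in the other livers of its group for Srxn1. On Western diet, Gpx1 in liver 33 labelled knockout had 1371 CPM, against 964 to 1079.7 CPM in the other livers of its group, and Nqo1 in wild-type liver 17 had 23.5 CPM, against 15.5 to 18.0 CPM in the other livers of its group. At day 3 wild-type liver 12N was the lowest for Gsr, with 66.7 CPM, against 84.7 to 89.4 CPM in the other livers of its group, and for Gsta3, with 942 CPM, against 1172 to 1246 CPM in the other livers of its group. At day 0 liver 13 was the lowest for Gstm2, with 13.8 CPM, against 24.0 to 28.0 CPM in the other livers of its group, and for Gstm3, with 29.1 CPM, against 49.0 to 59.8 CPM in the other livers of its group, and liver 15 for Abcc4, with 0.786 CPM, against 2.13 to 2.74 CPM in the other livers of its group. No named member had label differences of opposite sign without overlap under 2 challenges.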

How the results depend on the processing

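Of 81 member results (calls, and members named for the label), 0 changed sign in 1957 refits. Of the 81, 45 lost no call and 36 lost a call at least once. The 45 include label results that had no call to lose. These were Gsta3 and Gstm6 on Western diet, Gsr and Txnrd1 after CCl4 and Gpx3 at day 3. With no filter, Gpx3 for the label at day 3 gained a call. The Western diet counts of members called moved past 1.5 times only within index D502, with 1 lower and 1529 genes called. After CCl4, members called higher were 8 with DESeq2, 8 with voom, 8 without livers 34 and 35, 3 with D504 controls and 0 with D505 controls. Without livers 34 and 35, 13% of all genes were called higher. That share is not given here for DESeq2 and voom, so their counts are not read as a result about the members. Members called lower were 15 with the index as a covariate and 5 with either set of controls, while all genes called higher and lower were 774 and 662 with D504 controls and 346 and 358 with D505 controls, and those called lower 1764 with the covariate and 1601 with voom. At day 3 the mouse-number block gave 13 members higher, 2 lower and 1710 genes. Same-numbered livers correlated at 0.032, -0.012, -0.021, 0.076 and 0.090, and only numbers 15 and 16 correlated best with their own. Pairing was not used in the results above, although these correlations cannot show that the same numbers mark different animals. For the knockout label, genes called were 1 within D501 on Western diet; after CCl4 20 with DESeq2, 2 without livers 34 and 35, 2 with voom and 0 within D503; and at day 3 60 with DESeq2, 5 with a mean of at least 1 CPM and 182 with no filter, where members called were 0 and 2. Averaged over challenges, genes called were 58 with DESeq2, 84 without livers 34 and 35, 49 with voom, which called 1 member, and 8 with no filter. CCl4 minus hepatectomy gave 513 genes with no filter. Western diet minus hepatectomy gave 684 genes and 2 members higher with DESeq2, 1188 genes with voom and 295 with no filter. Where no value shows the cause of a move, the cause was not tested.

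With each liver left out in turn, members called higher and lower ran over 18 to 19 and 6 to 10 on Western diet (4222 to 5031 genes), 4 to 7 and 6 to 9 after CCl4 (971 to 1202 and 786 to 929 genes), and 11 to 14 and 3 to 4 at day 3 (1582 to 1785 genes). Differences between responses gave 2 to 3 and 10 to 13 for CCl4 minus Western diet (1791 to 2199 genes), 1 to 3 and 6 to 13 for CCl4 minus hepatectomy (451 to 1178 genes), and 0 to 2 and 1 to 1 for Western diet minus hepatectomy (282 to 476 genes). For the label, members and genes called ran over 0 to 0 and 2 to 3 on Western diet, 0 to 0 and 1 to 2 after CCl4, 0 to 1 and 3 to 40 at day 3, and 0 to 3 and 7 to 265 on average, with 3 members called without CCl4 liver 35. Depth in the toxin and surgery libraries limits low genes such as Slc7a11, Abcc4, Gstp2 and Gsta1.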

Other observations

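The 7 livers labelled knockout on Western diet differed widely in several of these genes. In livers 1, 2, 4, 6, 15, 33 and 35, in that order, Gstm3 stood at 73.3, 740.4, 471, 539.9, 113, 194 and 571 CPM and Srxn1 at 73.0, 151, 140.3, 158, 90.2, 94.2 and 157 CPM. In the same order of livers Gstm1 stood at 1450.3, 4002, 3027, 3250.0, 1752, 2553 and 3631 CPM and Abcc4 at 4.19, 15.0, 13.2, 14.6, 6.38, 8.24 and 13.1 CPM. Liver 1 was the lowest for each of these 4 genes, and liver 15 the next. The 9 low-fat livers ranged over 28.8 to 68.1 CPM for Gstm3, 46.4 to 70.3 CPM for Srxn1, 1181 to 1753 CPM for Gstm1 and 1.25 to 4.27 CPM for Abcc4. These genes were picked after their values were seen, so no test was made.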
